A study of Mus with 10 samples.

Results

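The BCL2 family genes examined here were *Bcl2*, *Bcl2l1*, *Bcl2l11*, *Mcl1*, *Bax*, *Bak1*, *Bid*, *Bad*, *Bbc3* and *Bmf*, compared between type 1 innate lymphoid cells (ILC1s) with and without the activating receptor NKp46. They were chosen by symbol, and all 10 were found among the 24564 genes of the deposited count table. All 10 also passed the filter on low counts, which left 11463 tested genes.

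ILC1s were sorted from the livers of C57BL/6 mice, 6 to 8 weeks old and male or female, and 5 libraries of each genotype were sequenced. *Ncr1*+/+ (Ncr1-WT) mice carry the intact gene for NKp46. In *Ncr1*gfp/gfp (Ncr1-KO) mice, the coding sequence of green fluorescent protein stands in for *Ncr1* on both alleles, in every cell that uses the *Ncr1* promoter. Both sorts took lineage-negative NK1.1+CD49b-CD49a+ cells, but Ncr1-WT cells were gated by an NKp46 antibody and Ncr1-KO cells by GFP, so that genotype and gate cannot be told apart. The paper's legends speak of RNA pools, and the sources used here do not say whether each library came from 1 mouse or from several. The p-values therefore set the difference between genotypes against the spread between these libraries.

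Proteins of the BCL2 family set the threshold at which a cell undergoes apoptosis through its mitochondria. Pro-survival proteins (BCL-2, BCL-XL, MCL-1) hold the effectors BAX and BAK in check. BH3-only proteins (BIM, BID, BAD, PUMA, BMF) respond to stress or to loss of growth factors and either neutralize the pro-survival proteins or activate the effectors, which then open the outer mitochondrial membrane. In lymphocytes, cytokines that signal through the common gamma chain, such as IL-2, IL-7 and IL-15, are known to sustain the pro-survival side. Much of this family is controlled after transcription, through protein turnover, phosphorylation and cleavage, which counts of mRNA do not measure.

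The total count per library ranged from 15796253 to 21975879 in Ncr1-KO and from 17996935 to 22623133 in Ncr1-WT ILC1s. Values are given as CPM, the counts scaled with TMM factors to a library of 1000000 counts, on which 3 counts, the limit that a count of 0 allows, correspond to between 0.132 and 0.190 CPM. *Ncr1* itself had 141 to 356 CPM in Ncr1-KO and 1913 to 2144 CPM in Ncr1-WT libraries. The source of the *Ncr1* reads that remained in Ncr1-KO libraries was not tested. Of the ILC1 markers examined, 8 of 9 had a row in the table and their summed level was 4538 to 4737 CPM in Ncr1-KO and 4353 to 4687 CPM in Ncr1-WT libraries, with *Klrb1c* (NK1.1) the most abundant. *Itga1*, which encodes the CD49a used in the gate, was 0.32 higher on the log2 scale in Ncr1-KO libraries, and the natural killer (NK) cell marker *Itgam* was 0.96 higher. The summed level of the NK markers was 141 to 224 CPM in Ncr1-KO and 104 to 128 CPM in Ncr1-WT libraries. Without *Itgam*, the most abundant, it was 58.5 to 102 and 50.3 to 68.8 CPM, with overlap. Of the 7 tested NK markers, *Itgam* alone had an adjusted p under 0.05 (edgeR).

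The T cell markers also moved with genotype. Their summed CPM was 669 to 847 in Ncr1-KO and 514 to 618 in Ncr1-WT libraries, mostly from *Cd3g*, and 53.3 to 124 against 61.5 to 75.7 without it. Of 10 T cell markers 8 were tested, of which *Cd3e*, *Cd3g* and *Cd8a* were higher (log2 fold changes of 1.88, 0.45 and 1.53) and *Cd28* lower (-0.94), and none was at 0 in all libraries of a genotype. In Ncr1-KO against Ncr1-WT libraries, *Cd3e* had 9.05 to 38.8 against 2.80 to 6.85 CPM and *Cd8a* 11.8 to 36.4 against 1.35 to 9.70 CPM. *Cd28* had 10.2 to 31.5 against 35.2 to 51.0 CPM. The sum without *Cd3g* thus joins genes that moved in opposite directions. B cell markers, mostly *Cd79b*, summed to at most 6.48 CPM in any library, and 3 of 6 were at 0 in all Ncr1-KO libraries. The summed level in Ncr1-KO against Ncr1-WT libraries was 6.76 to 48.2 against 10.5 to 66.9 CPM for myeloid markers (most abundant *Lyz2*), 123 to 212 against 135 to 182 CPM for hepatocyte markers (*Trf*), 128 to 151 against 113 to 147 CPM for endothelial markers (*Pecam1*) and 143 to 235 against 158 to 267 CPM for markers of cycling cells (*Mcm2*). Without *Trf* the hepatocyte markers summed to 2.24 to 67.6 against 1.76 to 35.4 CPM. Without *Pecam1* the endothelial markers summed to 0.411 to 2.50 against 0.606 to 2.64 CPM. The part of these marker lists in the values of the BCL2 family genes was not tested. In bulk libraries, fewer cells of a type and less RNA per cell cannot be told apart.

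None of the 10 BCL2 family genes passed an adjusted p-value of 0.05 in Ncr1-KO against Ncr1-WT ILC1s (edgeR's quasi-likelihood test, Benjamini-Hochberg adjustment over all tested genes). Of all tested genes 1.35% passed, with 0.567% of all tested genes higher and 0.785% lower in Ncr1-KO ILC1s, and 0.733% also met the fold limits of the study's methods (above 1.5 or below 0.7). A count of 0 of 10 lies near this background share. *Bmf* came nearest, with a log2 fold change of 0.53 and an adjusted p of 0.0662. At an unadjusted p under 0.05 there were 2 genes, *Bmf* and *Bax*, where 11.4% of all tested genes passed. With DESeq2, edgeR's likelihood ratio test, limma-voom with quality weights, or no filter on low counts, 1 of the 10 genes passed the adjusted threshold, and it was *Bmf* each time. The share of all genes that passed was 2.54%, 2.3%, 1.46% and 1.59% in these fits.

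None of the 10 genes had CPM values without overlap between the genotypes, against 3.11% of all tested genes. The log2 fold change was above 0 for 7 and below 0 for 3 of them, with a median of 0.04 (-0.02 with limma-voom), where the median of all tested genes was 0.00 and 50.7% were above 0. The 95% interval of the fold change lay wholly between 0.7 and 1.5 for 9 of the 10 genes, *Bmf* being the exception. It included 0 on the log2 scale for 8 of them.

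**Figure D1:**
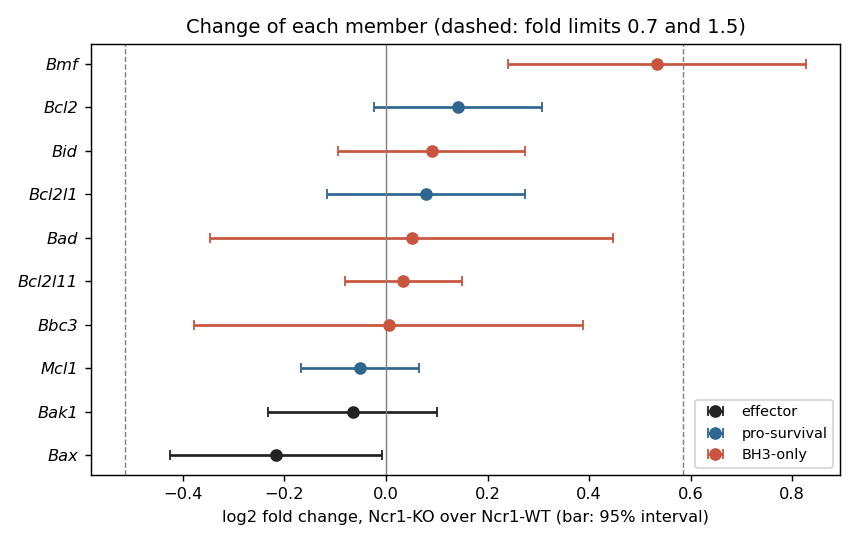
Log2 fold change of each BCL2 family gene in Ncr1-KO over Ncr1-WT ILC1s (x axis) with its 95% interval from edgeR's quasi-likelihood fit, 5 libraries per genotype, coloured by role. Dashed lines mark the fold limits of 0.7 and 1.5, and only the intervals of *Bmf* (0.24 to 0.83) and *Bax* (-0.43 to -0.01) leave out 0.

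The pro-survival genes are described first. *Bcl2* encodes BCL-2 and is listed on chromosome 1 (108434753 to 108610867, minus strand). No genome build is named for these coordinates, and none of the 10 genes shares its start with the GRCm38.p6 annotation. The CPM of *Bcl2* was 887, 898, 729, 749 and 644 in Ncr1-KO replicates 1 to 5 and 802, 663, 625, 708 and 746 in Ncr1-WT replicates 1 to 5. Replicates 1 and 2 of Ncr1-KO were above every Ncr1-WT library, while the other 3 lay within the Ncr1-WT range. The log2 fold change was 0.14 (standard error 0.08, 95% interval -0.02 to 0.31) and the adjusted p 0.530 (edgeR's quasi-likelihood test).

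*Mcl1* encodes MCL-1, a short-lived protein that many lymphocytes depend on, and is listed on chromosome 3 (95462643 to 95467101, plus strand). It had 459, 469, 435, 423 and 393 CPM in Ncr1-KO and 475, 446, 420, 474 and 443 CPM in Ncr1-WT replicates 1 to 5. The ranges overlapped over most of their width, with the lowest value in Ncr1-KO replicate 5. With a log2 fold change of -0.05 (standard error 0.06, 95% interval -0.17 to 0.06), its interval was among the narrowest of the family (adjusted p = 0.820, same edgeR test).

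*Bcl2l1* encodes BCL-XL and is listed on chromosome 2 (152584468 to 152657464, minus strand). Its counts cover all splice forms together, including the short form that promotes death. Its CPM was 119, 125, 105, 86.4 and 84.0 in Ncr1-KO and 98.6, 99.0, 96.5, 102 and 95.3 in Ncr1-WT replicates 1 to 5. The Ncr1-WT libraries lay close together, with a coefficient of variation of 2.67%, and the Ncr1-KO libraries lay on both sides of them, with 17.9%. The log2 fold change was 0.08 (standard error 0.09) with an adjusted p of 0.837 (edgeR).

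Both effectors had a lower mean in Ncr1-KO ILC1s, and neither passed the adjusted threshold. *Bax*, listed on chromosome 7 (52717065 to 52722268, minus strand), had 33.1, 37.0, 37.2, 30.8 and 32.5 CPM in Ncr1-KO and 44.9, 35.2, 35.3, 43.9 and 39.1 CPM in Ncr1-WT replicates 1 to 5. Replicates 1, 4 and 5 of Ncr1-KO were below every Ncr1-WT library, and replicates 2 and 3 were above Ncr1-WT replicates 2 and 3. A log2 fold change of -0.22 (standard error 0.10) came with an unadjusted p of 0.0425 and an adjusted p of 0.410 (edgeR), and the two-sided exact permutation test gave p = 0.0556.

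*Bak1*, listed on chromosome 17 (27156757 to 27165572, minus strand), encodes BAK. It had 68.5, 83.8, 72.1, 70.3 and 69.5 CPM in Ncr1-KO and 80.0, 65.9, 75.2, 82.4 and 78.2 CPM in Ncr1-WT replicates 1 to 5. In Ncr1-KO ILC1s replicate 2 stood above the other 4, which lay between 68.5 and 72.1 CPM. *Ggnbp1*, which overlaps *Bak1* on the opposite strand, had at most 1.01 CPM in any library. On the log2 scale Ncr1-KO minus Ncr1-WT was -0.07 (standard error 0.08), with an adjusted p of 0.841 (edgeR).

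Among the BH3-only genes, *Bcl2l11* (BIM), the member best known for removing lymphocytes that lose cytokine support, was the steadiest. It is listed on chromosome 2 (127951774 to 127988283, plus strand). Its CPM was 278, 278, 282, 290.5 and 249 in Ncr1-KO and 262, 288, 274, 264 and 258 in Ncr1-WT replicates 1 to 5. The highest and the lowest value were both in Ncr1-KO libraries. Between the genotypes it differed by 0.03 on the log2 scale (standard error 0.06, 95% interval -0.08 to 0.15, adjusted p = 0.894, edgeR). The counts do not separate the BIM splice forms.

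*Bmf*, whose product binds the dynein light chain until stress releases it, is listed on chromosome 2 (118354493 to 118375422, minus strand). It had 35.8, 23.7, 42.2, 33.1 and 34.2 CPM in Ncr1-KO replicates 1 to 5, a mean of 33.8 ± 6.68 (SD, n = 5). In Ncr1-WT replicates 1 to 5 it had 27.2, 26.0, 23.7, 22.0 and 17.5 CPM, a mean of 23.3 ± 3.82 (SD, n = 5). Replicates 1, 3, 4 and 5 of Ncr1-KO were above every Ncr1-WT library, and replicate 2 alone lay inside their range. The counts behind these values were between 322 and 798 per library.

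The fold change of *Bmf* was 1.45 (95% interval 1.18 to 1.77), below the fold limit of 1.5. Its unadjusted p was 0.0011 and its adjusted p 0.0662 in the quasi-likelihood test, and the two-sided exact permutation test gave p = 0.0317, where 0.00794 is the smallest that 5 libraries against 5 allow. In the alternatives the adjusted p was 0.0218 with DESeq2, 0.0194 with edgeR's likelihood ratio test, 0.0182 with limma-voom and 0.0134 without the filter. Leaving out Ncr1-KO replicate 2 gave a log2 fold change of 0.64 and an adjusted p of 0.0121, and leaving out replicate 3 gave 0.44 and 0.170 (edgeR's quasi-likelihood test). Over all 19 alternative fits the log2 fold change stayed between 0.44 and 0.64. Ncr1-KO replicate 3 also held the highest *Cd3e* level (38.8 CPM) and the highest level of the hepatocyte transcript *Alb* (38.0 CPM). Without this library and Ncr1-WT replicate 1, where *Alb* was 28.0 CPM, the log2 fold change of *Bmf* was 0.50 (adjusted p = 0.145, edgeR). That fit was added after values of these libraries were seen. The T cell markers without *Cd3g* summed to 62.0, 53.3, 124, 103 and 74.4 CPM in Ncr1-KO replicates 1 to 5. *Bmf* had 35.8, 23.7, 42.2, 33.1 and 34.2 CPM there. In Ncr1-WT replicates 1 to 5 these markers summed to 61.5, 75.7, 72.7, 63.9 and 64.5 CPM, beside 27.2, 26.0, 23.7, 22.0 and 17.5 CPM of *Bmf*. Within this sum, *Cd3e* and *Cd8a* were higher and *Cd28* lower in every Ncr1-KO library than in any Ncr1-WT library. The part of the T cell markers in the *Bmf* values was not tested.

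*Bid*, which caspase-8 cleaves to link death receptors to mitochondria, is listed on chromosome 6 (120843137 to 120866838, minus strand). Its CPM was 55.1, 45.3, 48.0, 47.3 and 49.3 in Ncr1-KO and 43.6, 45.2, 40.5, 49.5 and 51.3 in Ncr1-WT replicates 1 to 5. All Ncr1-KO values except that of replicate 1 lay within the Ncr1-WT range. Its mean differed by 0.09 on the log2 scale (standard error 0.09, adjusted p = 0.795, edgeR).

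*Bad* and *Bbc3* were the least abundant on the CPM scale. *Bad*, whose product is held inactive by survival kinases, is listed on chromosome 19 (7016351 to 7026395, plus strand). It had 8.32, 8.00, 8.15, 7.38 and 6.19 CPM in Ncr1-KO and 5.61, 7.85, 8.25, 8.58 and 6.42 CPM in Ncr1-WT replicates 1 to 5. The ranges overlapped almost fully, and the interval of the log2 fold change was wide, from -0.35 to 0.45 (log2 fold change 0.05, adjusted p = 0.956, edgeR). *Bad* overlaps *Gpr137* on the opposite strand by 590 bases. The kit used does not mark strand, so that the strand of a read in the shared stretch does not show its gene. *Gpr137* had between 7.96 and 16.6 CPM.

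*Bbc3* encodes PUMA, a target of p53, and is listed on chromosome 7 (16894932 to 16903683, plus strand). Its CPM was 7.56, 15.5, 11.1, 10.5 and 8.27 in Ncr1-KO and 11.8, 9.53, 10.5, 10.2 and 10.8 in Ncr1-WT replicates 1 to 5. The means were equal at 10.6 CPM, but the Ncr1-KO libraries spread more widely, with a coefficient of variation of 29.5% against 7.74%. This corresponds to a fitted log2 fold change of 0.00 (standard error 0.18, 95% interval -0.38 to 0.39, adjusted p = 0.997, edgeR). A difference in spread was not tested.

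**Figure D2:**
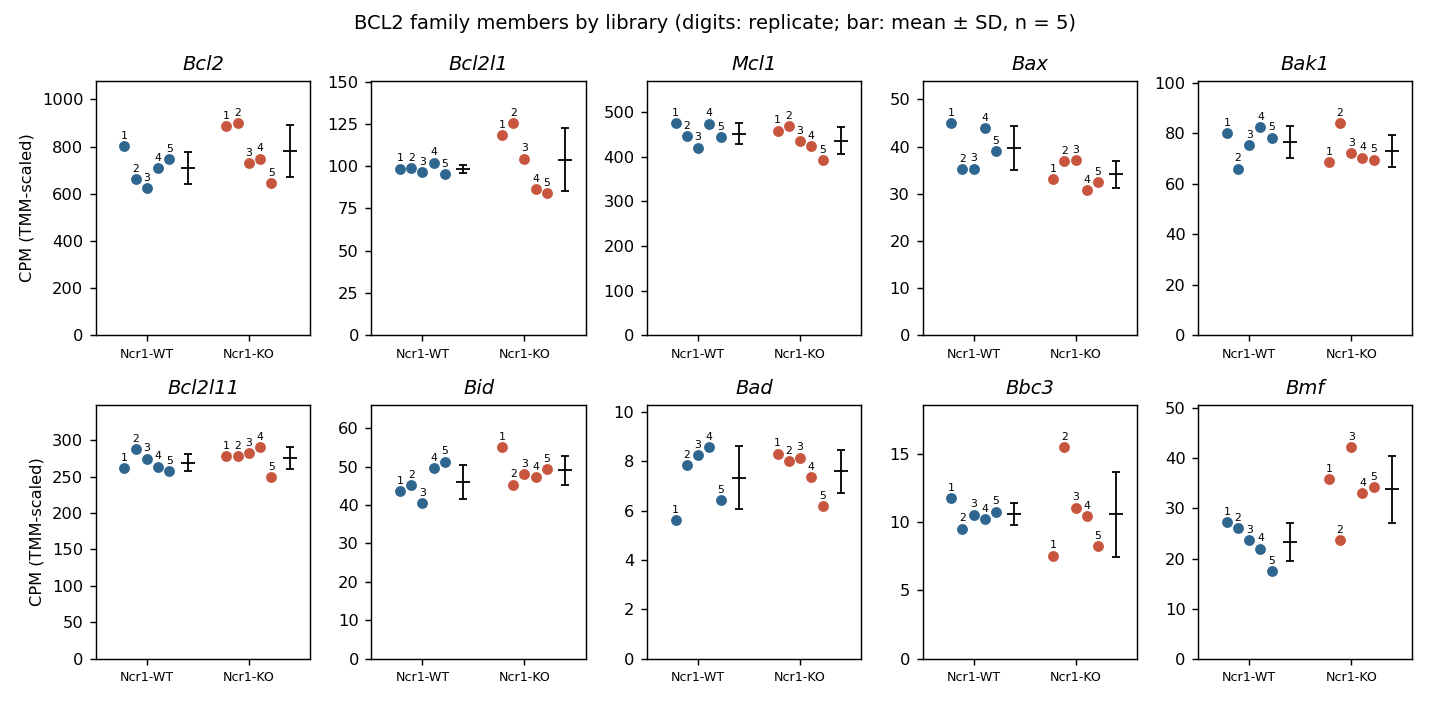
CPM of each BCL2 family gene (y axis, from 0, one panel per gene) in the 5 Ncr1-WT and 5 Ncr1-KO ILC1 libraries, with replicate numbers beside the points and a bar for the mean ± SD. The genotypes overlap in every panel, and in *Bmf* only Ncr1-KO replicate 2, at 23.7 CPM, lies inside the Ncr1-WT range.

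To compare levels between genes, CPM was divided by the listed exon length in kilobases. On this scale *Mcl1* had the highest level of the family, 127 ± 7.66 CPM per kilobase (SD, n = 10 libraries), followed by *Bcl2* at 101 ± 12.8. *Mcl1* was first and *Bcl2* second in each of the 10 libraries, although their ranges over the libraries overlapped. These levels were above those of 97.3% and 96.4% of all tested genes.

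The next 5 genes lay close together. *Bax* had 42.4, *Bcl2l11* 38.2, *Bak1* 36.9, *Bcl2l1* 31.0 and *Bid* 25.1 CPM per kilobase on average, and each overlapped with its neighbour in this order. *Bax*, for instance, was above *Bcl2l11* in 8 of 10 libraries, and *Bcl2l11* above *Bak1* in 6. Between *Bcl2* and *Bax* the ranges did not overlap, and the ratio of their means was 2.39. *Bmf*, *Bbc3* and *Bad* followed at 5.61, 5.35 and 4.91 CPM per kilobase, again without overlap with *Bid*, whose mean was 4.48 times that of *Bmf*. Within this lowest group the order changed from library to library, *Bmf* being above *Bbc3* in 5 of 10. The listed exon length covers every annotated exon, so a gene with long exons that ILC1s do not use is placed too low.

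**Figure D3:**
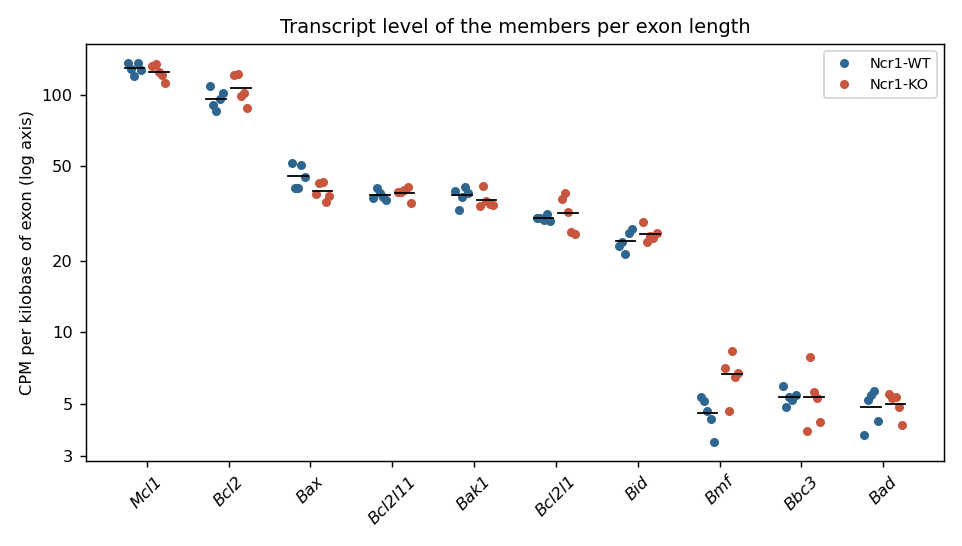
Level of each BCL2 family gene in CPM per kilobase of exon (log y axis), with 1 point per library, 5 Ncr1-WT and 5 Ncr1-KO, and a line at each genotype's mean. *Mcl1* and *Bcl2* lie above 85.0 in every library, the next 5 genes between 21.4 and 51.7, and *Bmf*, *Bbc3* and *Bad* at 8.30 or below.

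Summed per kilobase, the 3 pro-survival genes made up 62.6 ± 1.91% of the transcripts of the 10 genes in Ncr1-KO and 61.5 ± 0.768% in Ncr1-WT ILC1s (SD, n = 5 each). The effectors made up 17.95 ± 1.19% and 19.99 ± 1.08%, and the BH3-only genes 19.5 ± 1.24% and 18.5 ± 1.13%. Each of these shares overlapped between the genotypes. *Bcl2l11* alone held 47.4 ± 1.47% of the BH3-only transcripts in Ncr1-KO and 49.1 ± 1.85% in Ncr1-WT ILC1s.

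The ratio of *Bcl2* to *Bcl2l11*, per kilobase, was 3.10, 3.14, 2.51, 2.50 and 2.51 in Ncr1-KO replicates 1 to 5. In Ncr1-WT replicates 1 to 5 it was 2.97, 2.24, 2.21, 2.61 and 2.81. *Bcl2* thus exceeded *Bcl2l11* in all 10 libraries, and the ranges overlapped, with Ncr1-KO replicates 1 and 2 above every Ncr1-WT library and Ncr1-WT replicates 2 and 3 below every Ncr1-KO library. The ratio of *Mcl1* to *Bcl2* was 1.18 ± 0.0887 in Ncr1-KO and 1.35 ± 0.0906 in Ncr1-WT ILC1s (SD, n = 5 each), with overlap between 1.25 and 1.28. That of *Bax* to *Bak1* was 1.09 ± 0.0748 and 1.21 ± 0.0827. These ratios are given as a description, without a test.

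Genes that act around the 10 were taken from 4 lists with 67 genes in all, of which 61 were tested. Of these, 3 had an adjusted p under 0.05, against 1.35% of all tested genes, and 6 had no overlap between the genotypes, against 3.11%. The lists were chosen with earlier results of these data known, and the paper already reports *Il2ra* and *Il7r* as lower in these libraries. These shares are therefore a description and cannot test for an excess. An unadjusted p under 0.05 was reached by 11.4% of all tested genes. All 3 genes with an adjusted p under 0.05 stood in the list of upstream cytokine survival signals.

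Of 16 other BCL2 family genes, 10 were tested and none passed (edgeR's quasi-likelihood test), against 0 with DESeq2, the likelihood ratio test and limma-voom. At an unadjusted p under 0.05 in the quasi-likelihood test there were 2 (*Bcl2a1b* and *Bnip3l*), where 11.4% of all tested genes passed. The log2 fold change was below 0 for 8 of these 10 tested genes, with a median of -0.24, where 49.3% of all tested genes were below 0. The median standard error was 0.24 in this list, against 0.12 over all tested genes. The most abundant was *Bcl2l13*, a mitochondrial outer membrane protein, at 109 ± 8.12 CPM in Ncr1-KO and 108 ± 5.93 CPM in Ncr1-WT ILC1s (SD, n = 5 each). *Bnip3l*, a receptor for the removal of mitochondria, followed with 72.1 ± 5.88 and 60.1 ± 9.45 CPM (log2 fold change 0.26, adjusted p = 0.246, edgeR), and *Bcl2l2*, which encodes the pro-survival protein BCL-W, with 18.9 ± 4.91 and 22.2 ± 1.92 CPM.

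*Bcl2a1b*, chosen after its values were seen, belongs to the pro-survival A1 genes. It had 8.62 to 11.8 CPM in Ncr1-KO and 12.4 to 19.5 CPM in Ncr1-WT libraries, without overlap. Its log2 fold change of -0.52 (standard error 0.16) had an adjusted p of 0.116 (edgeR), and between 0.0661 and 0.300 over the 19 alternative fits. The A1 genes are near-identical copies, so that reads could be split or lost among them. Summed over the 4 listed copies, the counts were 193 to 288 in Ncr1-KO and 315 to 383 in Ncr1-WT libraries, before scaling for depth.

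Partners and modifiers of the family, include the 14-3-3 proteins that hold BAD and the ubiquitin ligase and deubiquitinase that act on MCL-1. None of the 16 tested genes of this list passed (edgeR's quasi-likelihood test), against 0 with DESeq2, the likelihood ratio test and limma-voom. At an unadjusted p under 0.05 in the quasi-likelihood test there was 1, *Mtch2*, where 11.4% of all tested genes passed. The most abundant by CPM were *Huwe1*, which encodes the MCL-1 ubiquitin ligase, *Tmbim6* (BAX inhibitor 1) and *Usp9x*, which encodes the MCL-1 deubiquitinase, with log2 fold changes of 0.02, -0.06 and 0.04. The median of the list was 0.02. *Mtch2*, named after its value was seen, encodes a mitochondrial membrane protein that binds BID and differed by 0.20 on the log2 scale (adjusted p = 0.397).

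Downstream of the mitochondria, none of 15 apoptosome, caspase and inhibitor genes passed (edgeR's quasi-likelihood test), against 0 with DESeq2, the likelihood ratio test and limma-voom. At an unadjusted p under 0.05 in the quasi-likelihood test there were 4 (*Xiap*, *Birc3*, *Birc5* and *Dffa*), where 11.4% of all tested genes passed. The most abundant, *Xiap* and *Birc2*, which encode inhibitors of apoptosis, and *Apaf1*, the scaffold of the apoptosome, had log2 fold changes of 0.14, 0.04 and 0.06. The median of the list was -0.03.

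In the list of upstream cytokine survival signals, 20 genes were tested, of which 0 were higher and 3 lower in Ncr1-KO ILC1s at an adjusted p under 0.05. *Il2ra*, the alpha chain of the IL-2 receptor, fell by 1.24 on the log2 scale (adjusted p = 7.08e-06, edgeR) and *Il7r*, the alpha chain of the IL-7 receptor, by 0.97 (adjusted p = 0.00773). *Ets1*, a lymphoid transcription factor, fell by 0.21 (standard error 0.05, adjusted p = 0.0225), from 1728 ± 64.6 to 1490 ± 105 CPM (SD, n = 5 each), without overlap. The call of *Ets1* was lost in 5 of the 19 alternative fits, namely without Ncr1-KO replicate 1 or 2, without Ncr1-WT replicate 1 or 3, and without Ncr1-WT replicate 1 and Ncr1-KO replicate 3 together, with an adjusted p of up to 0.0742. In the last of these fits that of *Il7r* was lost too (adjusted p = 0.0550). The receptor chain shared by IL-2 and IL-15, *Il2rb*, was the most abundant of the list at 3424 ± 113 CPM in Ncr1-KO and 3724 ± 142 CPM in Ncr1-WT ILC1s (log2 fold change -0.12, adjusted p = 0.117, edgeR), without overlap. The same 3 genes passed with DESeq2 and the likelihood ratio test, and 4 with limma-voom, where *Il2rb* was added. *Jak1*, the kinase that these receptors share, had a log2 fold change of -0.03. The list had a median of -0.05.

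**Figure D4:**
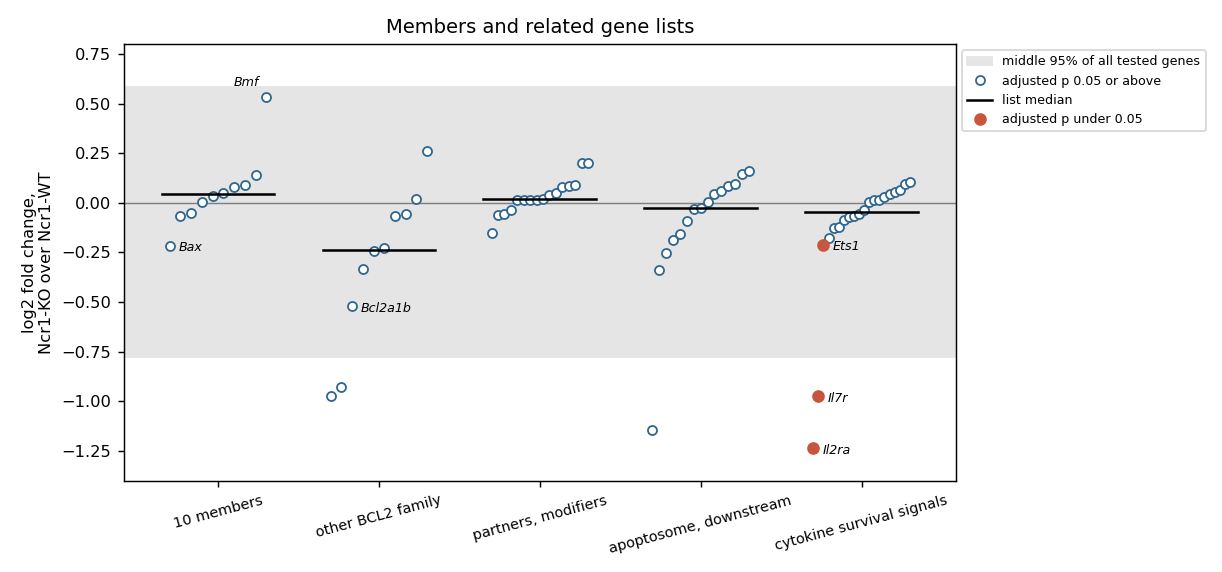
Log2 fold change in Ncr1-KO over Ncr1-WT ILC1s (y axis) of the 10 BCL2 family genes and of the tested genes of 4 related lists (x axis), 1 point per gene, with a line at each list's median and a grey band for the middle 95% of the 11463 tested genes (-0.78 to 0.58). Filled points have an adjusted p under 0.05 (edgeR's quasi-likelihood test), and these are *Il2ra*, *Il7r* and *Ets1*.

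*Bcl2* was also set beside *Il7r* library by library. In Ncr1-KO replicates 1 to 5, *Il7r* had 67.2, 45.1, 87.6, 87.5 and 135 CPM and the order of these libraries was the reverse of their order in *Bcl2*, although replicates 3 and 4 had nearly the same *Il7r* level. In Ncr1-WT replicates 1 to 5 *Il7r* had 199, 182, 185, 132 and 131 CPM. The order was again the reverse in replicates 2 to 5, although replicates 4 and 5 had nearly the same *Il7r* level and replicates 2 and 3 lay close together. Replicate 1 went against this order, being highest in both genes. With 5 libraries a genotype no correlation was computed, and this order was noticed after the values were seen.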

How the data were processed

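RNA from sorted liver ILC1s (2 ng of total RNA per library, 5 libraries per genotype) was amplified from polyA with the SMART-Seq v4 kit, which does not mark strand, and sequenced in single-read mode for 51 cycles. Trimming by the authors used Trimmomatic and FASTP, mapping is given as STAR with mm10, and counting used HTSeq, and the authors deposited raw counts, as whole numbers. Of 23924 matched genes, only 344 share their listed start with GRCm38.p6, the assembly behind mm10. The listed coordinates should therefore not be read as mm10 positions. Reads with several matches are not counted by HTSeq, which lowers counts of near-identical copies. How reads in genes that overlap on opposite strands were counted depends on its strand setting, for which the paper gives only default parameters. Exon lengths are the authors' values from the same deposited table.

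Groups were taken from the sample labels. Genes were filtered with filterByExpr, scaled by TMM and tested with edgeR (version 4.0.16, R 4.3.3) by the quasi-likelihood test with genotype as the only term, with Benjamini-Hochberg adjustment over all 11463 tested genes. Thresholds were an adjusted p under 0.05 and, where stated, a fold change above 1.5 or below 0.7, as in the study's methods. Intervals and standard errors come from this fit. A two-sided exact permutation test of mean log2 CPM (prior count 2) stands beside single genes. Alternatives were DESeq2 (version 1.42.0), upper-quartile and RLE scaling, the likelihood ratio test, a minimum of 10 counts per library, no filter, limma-voom (limma version 3.58.1) with quality weights, the replicate number as a block, and each library left out in turn. A fit without Ncr1-WT replicate 1 and Ncr1-KO replicate 3 together was added after values of these libraries were seen. Library totals were 15796253 to 22623133, and intervals from counts cover counting error and spread between libraries only.

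The 10 genes, the related lists and the marker lists were chosen with earlier results of these data known. All 10 were described. From the related lists, genes with an adjusted p under 0.05 and up to 3 of the most abundant were named, and from the marker lists those with an adjusted p under 0.05 and the most abundant. *Zfp683* was not analysed here, and 1 gene of the downstream list is not reported here. No 2 libraries of a genotype agreed within sampling noise. Same-numbered libraries of the 2 genotypes did not deviate together, so the numbers were not taken as pairs.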

Additional observations from a re-analysis of the deposited data

Results flagged for a closer look

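In groups of 5 libraries, a library was singled out where its gap to the nearest other, divided by the range of the group, exceeded 0.71. Of 52 groups examined, 3 met this, where chance gives about 1 in 20, or 2.6. *Bak1* in Ncr1-KO replicate 2 was 83.8 CPM, with the nearest library at 72.1 CPM. The summed hepatocyte markers were 212 CPM in Ncr1-KO replicate 3, with the nearest at 147 CPM, and 182 CPM in Ncr1-WT replicate 1, with the nearest at 146 CPM. Their part in the values of the BCL2 family genes was not tested.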

How the results depend on the processing

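The count of BCL2 family genes with an adjusted p under 0.05 moved from 0 to 1, always *Bmf*, with DESeq2 (log2 fold change 0.54), edgeR's likelihood ratio test (0.53), limma-voom with quality weights (0.61), no filter on low counts (0.53) and without Ncr1-KO replicate 2, and ranged from 0 to 1 as each library was left out. For *Bmf* those leave-one-out fits gave 0.44 to 0.64. Over the 19 alternatives, 175 log2 fold changes of single genes kept their direction and side of the threshold, and 10 changed sign, none of them past the threshold: with limma-voom *Bcl2l1* (-0.0065), *Bad* (-0.034) and *Bbc3* (-0.059), with the replicate block *Bbc3* (-0.036), without Ncr1-WT replicate 1 and Ncr1-KO replicate 3 *Bad* (-0.060), and as each library was left out *Bad* (-0.033 to 0.12) and *Bbc3* (-0.18 to 0.10). The cause was not tested. Over all genes 84 were called, against 138 with the likelihood ratio test, 131 with no filter, 155 with no fold limit, 23 with an absolute log2 fold change above 1, and 60 to 98 as each library was left out. Of the related lists 3 genes passed, against 4 with limma-voom, 2 to 3 as each library was left out, and 1 without Ncr1-WT replicate 1 and Ncr1-KO replicate 3. With the replicate block *Bmf* had 0.53 (adjusted p = 0.0914, edgeR), and the pairing of replicate numbers, with correlations of -0.02 to 0.04, changed no call of the 10 genes. Depth limits *Bad* and *Bbc3* most, with 100 to 178 and 119 to 339 counts per library.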
